A study of Mus musculus with 4 samples.

Results

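The knockdown of MUNC in differentiating C2C12 cells was examined as 1 comparison: an array of cells given a short interfering RNA (siRNA) against MUNC, called siMUNC, against an array of cells given a control siRNA. C2C12 is an established mouse myoblast line. Both of these cultures had been moved at 80% confluence to DMEM with 2% horse serum and were collected 3 days later. A second pair of arrays, siMUNC and control siRNA, came from cells still proliferating in high-glucose DMEM with 10% fetal bovine serum, and serves here only to show where the members stood in that state. Total RNA was extracted with TRIZOL, labelled with biotin and hybridised to Affymetrix whole-transcript arrays, 1 array for each of the 4 groups. The labels give no siRNA dose, no time of transfection, no number of siRNA sequences and no statement that cultures were run in parallel.

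Members are genes, each represented by 1 transcript cluster (the array's probe set for a transcript locus). Of 23332 clusters, 14996 were paired with a single gene, and these gave 14860 genes. A gene was a member, and is called expressed below, if the higher of its 2 values in differentiating cells was at or above 8.50, the median of the gene means over all 4 arrays. This kept 7635 of 14860 genes. Just inside the limit lay Zfp958 (8.50 with siMUNC, 8.44 with control siRNA), Gata2 (8.39 and 8.50, in the same order) and Atp9a (7.67 and 8.50). Just outside it lay Reep1 (7.53 with siMUNC and 8.50 with control siRNA, 8.498 before rounding), Nt5c3 (8.50 and 8.33, in the same order) and Gstt3 (8.50 and 7.93). All levels below are the authors' values on a scale taken as log2, and every difference is siMUNC minus control on that scale, so that 1 is 2-fold. With 1 array a group no difference has a replicate check and no p-value was computed. Counts past 2-fold describe size only. The number of arrays limits the precision of every value.

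MUNC, also called DRReRNA, is a long noncoding RNA transcribed just upstream of Myod1, which encodes the muscle-determining transcription factor MyoD. When serum is withdrawn, myoblasts stop dividing, MyoD and its relatives switch on myogenin and MEF2 factors, and these activate the genes of the sarcomere, of the triads that couple the membrane signal to calcium release, and of muscle energy metabolism, while the cells fuse into myotubes. Enhancer RNAs of the MyoD locus are known for their part in this program.

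The targeted RNA could not be checked, since 0 of the clusters used were paired with its gene, Gm45923, and the groups are used as labelled. The cell type could. All 8 myotube markers were expressed in differentiating cells, and their summed level was 14.96 on the siMUNC array and 15.91 on the control array, against 10.97 and 11.51 in proliferating siMUNC and control cells. All 8 were lower with siMUNC in differentiating cells. The 4 measured markers of dividing cells summed to 12.26 with siMUNC and 11.02 with control siRNA in differentiating cells, and to 13.28 and 13.61 in proliferating siMUNC and control cells. Both differentiating arrays thus carried the myotube markers far above the proliferating arrays, and the siMUNC one lay nearer to the proliferating arrays on both sums. Endothelial markers were dim on every array (8 of 8), as were 7 of 9 macrophage markers, Ptprc, Csf1r, Itgam and Adgre1 among them, and 7 of 8 chondrocyte markers.

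Of the 7635 expressed genes, siMUNC cells had 152 (1.99%) at a level at least 2-fold above control cells, and 175 (2.29%) at a level at least 2-fold below them. The lower side reached farther: 66 genes were past 3-fold lower against 14 past 3-fold higher. The middle of the distribution was close to 0, with a median of 0.03 and quartiles of -0.15 and 0.22, and its SD across genes was 0.44. In proliferating cells, the same siRNA comparison had an SD of 0.25 across 7564 expressed genes, with 7 genes (0.0925%) past 2-fold higher and 23 (0.304%) past 2-fold lower. Among all measured genes, those near the limit were past 2-fold most often: 5.95% of those with a mean level between 8 and 9 on the 2 differentiating arrays were past 2-fold in differentiating cells, against 1.18% above 12. In proliferating cells these shares were 0.691% and 0.98%.

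**Figure D1:**
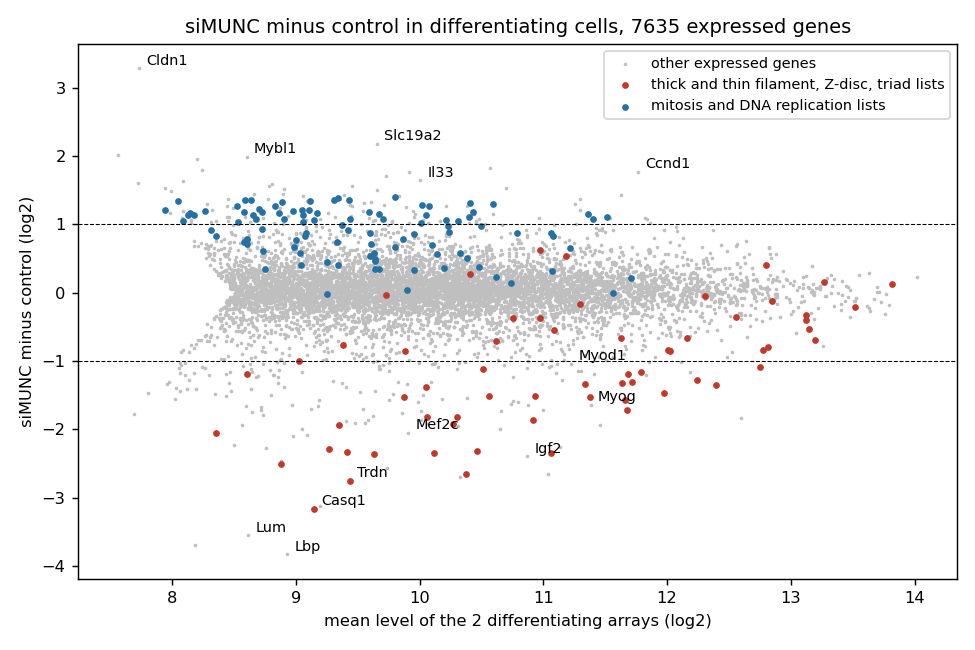
Each point is 1 of the 7635 expressed genes, with its mean level on the 2 differentiating arrays (log2) across and siMUNC minus control (log2) up. Dashed lines mark 2-fold. Genes of the thick filament, thin filament, Z-disc and triad lists (red) lie mostly below 0 at all levels, and those of the mitosis and DNA replication lists (blue) lie mostly above 0.

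Counted by list, 59 of the 175 lower genes (33.7%) belonged to lists of muscle structure, excitation, metabolism or muscle regulation, which hold 2.51% of all expressed genes, and 0 belonged to the cell cycle lists (mitosis and kinetochore, DNA replication, G1 to S, DNA repair and cohesin). Genes of cell cycle exit were counted apart from these, and 1 of them, Cdkn1c, was among the 175. Of the 152 higher genes, 60 (39.5%) belonged to cell cycle lists, which hold 2.02% of expressed genes, and 2 to muscle lists. The lists were chosen with earlier results of these data known, so these shares are a description and were not tested. In RNA of a whole culture, fewer cells of a type and less RNA per cell cannot be told apart, and this holds for every difference below. List counts below run over all measured members, dim ones included. Their background is all 14860 measured genes, with 1.27% past 2-fold on the higher side, 1.44% on the lower side and a median difference of 0.01.

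**Figure D2:**
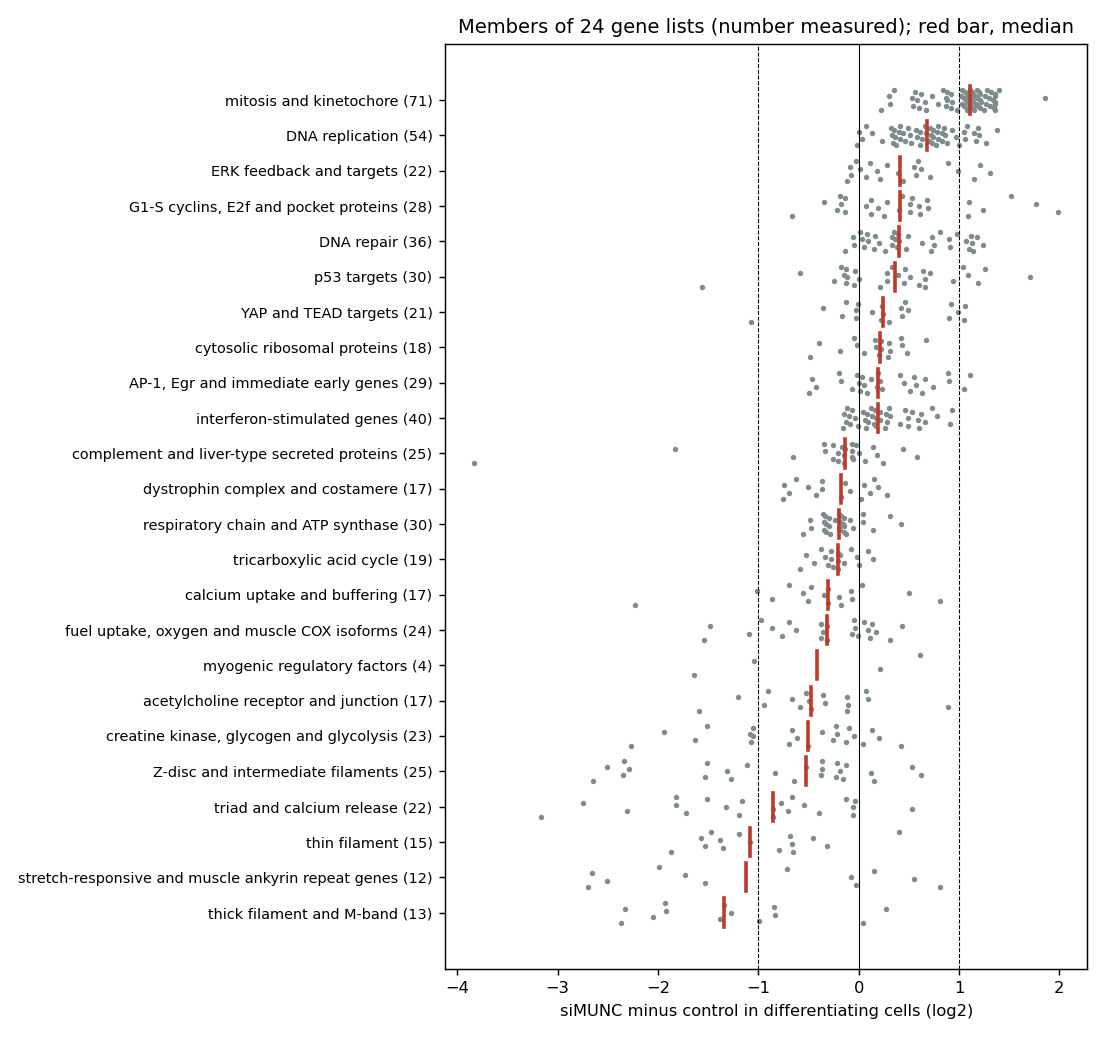
Each point is a measured member of 1 of 24 gene lists, those with the 14 lowest and 10 highest medians, placed by siMUNC minus control in differentiating cells (log2), and red bars are list medians. The thick filament list has the lowest median (-1.34) and the mitosis and kinetochore list the highest (1.10).

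The myogenic regulatory factors did not share a direction. Myog, the gene of myogenin, read 10.56 with siMUNC and 12.21 with control siRNA, a difference of -1.64 (3.13-fold lower). Myod1 read 10.70 and 11.75, in the same order, a difference of -1.04 (2.06-fold lower). Myf5, the early determination factor of myoblasts, read 10.81 with siMUNC and 10.19 with control siRNA, a difference of 0.62. Myf6 was dim on both arrays (8.46 and 8.24, in the same order). The siMUNC differentiating value of Myod1 was the lowest of all 4 arrays, since proliferating siMUNC and control cells read 10.96 and 11.46. Myog in siMUNC differentiating cells, by contrast, stayed far above its proliferating levels of 7.45 with siMUNC and 8.43 with control siRNA.

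Of 34 measured Mef2 factors and cofactors, 3 passed 2-fold on the lower side and 1 on the higher, with a median of -0.06. Mef2c, which encodes a MADS-box partner of the myogenic factors, read 8.88 with siMUNC and 10.93 with control siRNA (-2.05, 4.13-fold lower). Smyd1, a muscle methyltransferase and myosin chaperone, differed by -1.11, and Tead4, a TEA-domain factor, by -1.07. Smaller differences were seen for Zbtb18 (-0.89) and Mef2d (-0.69). Most of the general cofactors lay near 0, among them Srf (0.07), Carm1 (0.19), Mrtfb (0.19) and Smarcd3 (-0.27). The exception on the other side was Hmga2, a chromatin architectural protein of growing cells, which read 11.90 with siMUNC and 10.69 with control siRNA (1.21). Among the factors that hold back myogenesis, Id3, an inhibitor of E-protein partners of MyoD, was 2.65-fold lower (7.94 with siMUNC and 9.34 with control siRNA), and it too was lowest of the 4 arrays there. Id1 differed by -0.54, while 25 of the 26 measured repressors lay within 2-fold.

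The expressed genes around MUNC did not share the lower level of Myod1. Among the 10 nearest measured genes on each side, 7 were expressed, their differences ran from -0.08 to 0.36, and 6 of these 7 were above 0. The nearest expressed ones, Nomo1 and Saal1, lay 4 measured genes away. The 2 closest measured genes, Otog and Kcnc1, were dim (7.35 and 7.70 with siMUNC, 7.63 and 7.81 with control siRNA). They differed by -0.28 and -0.11, and at such levels they cannot show it either way. Chromosome 7, which carries Myod1, had 22 of 503 expressed genes (4.37%) past 2-fold lower, against 2.29% of all expressed genes. This was the largest share of any chromosome, followed by chromosomes 15 (3.66%) and 3 (3.61%), and it was not tested. The 14 measured genes of cohesin, the ring complex that holds chromatin loops and sister chromatids, and of its loading factors were all above 0 by small amounts (median 0.14). Esco2, the acetyltransferase of cohesin in S phase, was the 1 past 2-fold (9.76 with siMUNC and 8.34 with control siRNA, 1.42). Without it, the list ran from 0.03 for Smc1a to 0.34 for Stag1.

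The contractile apparatus held many of the lower genes. In the thick filament and M-band list 8 of 13 measured genes passed 2-fold, all of them lower (median -1.34, 11 below 0). Mybpc1, slow myosin-binding protein C, read 8.45 with siMUNC and 10.82 with control siRNA (-2.37, 5.16-fold lower). Myom1, the M-band cross-linker myomesin, read 8.25 and 10.58, in the same order (-2.33). Mybpc2, the fast form of the binding protein, Unc45b, a myosin chaperone, and Myl6b, a light chain, differed by -2.05, -1.93 and -1.92. The myosin light chains Mylpf (11.59 with siMUNC and 12.43 with control siRNA, -0.84) and Myl1 (12.35 and 13.19, -0.83) stayed within 2-fold.

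The thin filament list had 8 of 15 measured genes past 2-fold lower and 14 below 0 (median -1.08). Among the 8 is Klhl31 (-1.38), a muscle cullin adaptor and not a filament protein. All 6 measured genes of troponin subunits, the calcium switch of the filament, were lower: Tnni2 (-1.87), Tnni1 (-1.57), Tnnc2 (-1.47), Tnnc1 (-1.36), Tnnt3 (-1.08) and Tnnt2 (-0.79). Acta1, skeletal actin, read 12.85 with siMUNC and 13.54 with control siRNA, a difference of -0.69. The tropomyosins spread most: Tpm3 stood at -1.19, Tpm2 at -0.66, Tpm1 at -0.32 and Tpm4, a cytoskeletal form, at 0.40. Tpm3 holds a muscle and a cytoskeletal form in 1 gene, and the cluster gives 1 value for both.

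Of 25 measured Z-disc and intermediate filament genes, 10 passed 2-fold, all of them lower (median -0.53). Myoz2, the calcineurin-binding Z-disc protein calsarcin, read 9.05 with siMUNC and 11.70 with control siRNA (-2.65, 6.28-fold lower). Nrap, an anchoring protein of forming myofibrils, differed by -2.35, the actin-binding Cap2 by -2.34 and the cross-linker Actn2 by -2.29. Several genes of intermediate filament and LIM proteins that were already bright in proliferating cells lay close to 0 or above it. They were Des (-0.21), Nes (-0.16), Vim (0.12), Fhl1 (0.15), Fhl3 (0.53) and Pdlim5 (0.62). Others bright there were lower by less than 2-fold, namely Pdlim3 (-0.53), Pdlim7 (-0.37) and Sync (-0.36). The stretch-responsive and muscle ankyrin repeat genes were also spread. Smpx (8.98 with siMUNC and 11.68 with control siRNA, -2.70), Ankrd2 (-2.66), the muscle LIM protein Csrp3 (-2.51) and Ankrd23 (-1.99) were past 2-fold lower. Ankrd1, the ankyrin repeat gene that was bright in all 4 groups, was at -0.02, and Fhl2 at 0.81.

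Most genes of the triad list link the surface membrane to calcium release from the sarcoplasmic reticulum. Of its 22 measured genes, 10 were past 2-fold lower and 21 below 0 (median -0.86). The list also holds Mstn, the myostatin gene, which was dim (0.53). Casq1, the fast-muscle calcium store protein calsequestrin, read 7.56 with siMUNC and 10.73 with control siRNA (-3.16, 8.97-fold lower), and 5.76 and 5.77 in proliferating siMUNC and control cells. Trdn, which anchors calsequestrin to the release channel, read 8.06 and 10.81 in differentiating siMUNC and control cells (-2.75). The voltage sensor Cacna1s differed by -2.31, and the channel Ryr1 by -1.32. Lower by less than 2-fold were Cacng1 (-0.86), Jsrp1 (-0.86) and the adaptor Stac3 (-0.77), which couples sensor and channel. The immunophilin Fkbp1a (-0.05) and Asph (-0.04), which act in many cells, were close to 0. Of 17 genes of calcium uptake and buffering, Pvalb, the fast-muscle calcium buffer parvalbumin, was 4.71-fold lower (7.38 with siMUNC and 9.62 with control siRNA). Stim1, the store sensor, was just past the line at -1.01, and the pumps Atp2a1 (-0.87) and Atp2a2 (-0.55) stayed within it.

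At the membrane, the groups differed less. Of 17 measured acetylcholine receptor and junction genes, Erbb3, a neuregulin receptor (-1.59), and Chrnd, the receptor's delta subunit (-1.21), were past 2-fold lower, and 14 were below 0 (median -0.48). Nrg1, the ligand, read 10.27 with siMUNC and 9.38 with control siRNA (0.89). The dystrophin complex list had 0 of 17 past 2-fold, near the share of all measured genes past 2-fold lower (1.44%). Sgca (-0.75), Sgcd (-0.74) and Dag1 (-0.69) were its lowest. For adhesion and fusion the median over 30 genes was 0.02, with 2 past 2-fold lower and 1 higher. Mymk, which encodes the fusion protein myomaker, read 12.87 with siMUNC and 13.65 with control siRNA (-0.78). Dysf, a membrane repair protein, was 3.04-fold lower (9.18 and 10.79, in the same order). Ptger4, a prostaglandin E2 receptor, was past 2-fold higher by a narrow margin (1.01). Among caveolar genes the muscle-specific Cavin4 was at -1.73, whereas Cav2 was at 1.27 and Cav1 at 0.57.

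Muscle energy metabolism was lower at several of its muscle isoforms. Of 23 measured genes of creatine kinase, glycogen and glycolysis, 8 passed 2-fold, all of them lower (median -0.50). Pygm, muscle glycogen phosphorylase, read 10.00 with siMUNC and 12.27 with control siRNA (-2.27, 4.81-fold lower). Pgam2, the muscle phosphoglycerate mutase, differed by -1.94, Ckm, muscle creatine kinase, by -1.63 and Pfkm by -1.08. Other enzymes of the list lay nearer to 0, such as Tpi1 (-0.04), Aldoa (-0.23), Hk2 (0.13) and the muscle enolase Eno3 (-0.25). Ckb, a creatine kinase that is not the muscle form, was lower by less than 2-fold (-0.70). Among oxidative genes, the muscle cytochrome oxidase isoforms Cox6a2 (-1.54) and Cox8b (-1.10) and myoglobin, Mb (-1.49), were past 2-fold lower. Of 30 respiratory chain and ATP synthase genes and 19 tricarboxylic acid cycle genes, 0 were past 2-fold. These counts are near the share of all measured genes past 2-fold lower (1.44%), so they set neither list apart. Their medians were -0.19 and -0.21, with 25 of 30 and 16 of 19 below 0.

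Promoters are shown for 4 of the lower muscle genes, because 17 of the 45 lower muscle-list genes with a promoter in the RefSeq table (assembly GRCm38.p6) held the E-box CAGCTG, a binding sequence of MyoD and myogenin, in the 250 bases before their start. They are the 4 lowest by difference among these 17, a count that serves only to choose them. The share of all expressed genes with CAGCTG in this window of 250 bases is not given here. The sequences run 5′ to 3′ along the gene's strand and end at the base before the annotated start. They are Casq1 (chr1:172219896-172220145, minus strand), Myoz2 (chr3:123034988-123035237, minus strand), Mybpc1 (chr10:88605153-88605402, minus strand) and Nrap (chr19:56390039-56390288, minus strand). Capitals mark every CANNTG, the general E-box that CAGCTG is a case of, and every MEF2-type site (CTA and TAG with 4 bases between), on either strand.
Casq1: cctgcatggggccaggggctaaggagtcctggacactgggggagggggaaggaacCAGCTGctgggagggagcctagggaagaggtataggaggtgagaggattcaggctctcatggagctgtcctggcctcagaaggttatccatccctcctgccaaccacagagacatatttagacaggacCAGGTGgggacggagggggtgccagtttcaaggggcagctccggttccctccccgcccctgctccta
Myoz2: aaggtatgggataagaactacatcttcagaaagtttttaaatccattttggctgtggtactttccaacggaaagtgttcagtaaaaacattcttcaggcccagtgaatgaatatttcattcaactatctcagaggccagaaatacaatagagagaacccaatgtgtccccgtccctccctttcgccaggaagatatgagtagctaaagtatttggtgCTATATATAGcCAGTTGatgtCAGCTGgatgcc
Mybpc1: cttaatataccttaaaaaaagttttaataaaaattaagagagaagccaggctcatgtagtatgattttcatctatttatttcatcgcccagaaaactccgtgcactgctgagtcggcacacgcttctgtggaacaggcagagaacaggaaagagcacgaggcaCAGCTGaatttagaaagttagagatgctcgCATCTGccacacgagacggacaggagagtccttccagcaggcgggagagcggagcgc
Nrap: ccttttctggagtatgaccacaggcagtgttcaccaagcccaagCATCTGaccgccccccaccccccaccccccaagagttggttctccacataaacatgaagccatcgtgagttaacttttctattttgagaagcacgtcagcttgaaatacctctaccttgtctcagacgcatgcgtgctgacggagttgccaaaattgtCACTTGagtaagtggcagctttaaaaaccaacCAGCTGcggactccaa
In Casq1 the CAGCTG began at position -195, counted in bases from the start, with a second E-box at -67. In Myoz2 a MEF2-type site at -33, an E-box at -22 and the CAGCTG at -12 lay side by side. Mybpc1 carried E-boxes at -87 and -57, the farther one CAGCTG. Nrap carried 3, the nearest to the start (-16) being CAGCTG. A match to these letters is a description of the sequence and not evidence of binding.

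The cell cycle lists lay on the other side. Of 71 measured mitosis and kinetochore genes, 48 were past 2-fold higher with siMUNC, none reached 2-fold lower (0 of 71) and all 71 were above 0 (median 1.10). Bub1, a spindle checkpoint kinase, read 10.50 with siMUNC and 9.11 with control siRNA (1.39, 2.63-fold higher). Aurka, the centrosomal Aurora kinase, read 9.99 and 8.63, in the same order (1.36). The motor genes Kif23 (1.36), Kif4 (1.35), Kif20a (1.30) and Kif11 (1.26), the scaffold Anln (1.30) and the spindle factor Tpx2 (1.28) were of like size. Among its best known members Cdk1 stood at 0.83, Ccnb2 at 1.08, Ccna2 at 1.11 and Top2a at 1.10, and the lowest was Zwint, a kinetochore protein, at 0.22. The highest, Ercc6l, at 1.86, was dim (7.81 with siMUNC and 5.95 with control siRNA). All 71 read lower on the siMUNC differentiating array than on both proliferating arrays. Bub1, for instance, was at 11.51 and 11.81, and Aurka at 11.27 and 11.52, in proliferating siMUNC and control cells.

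DNA replication genes were higher by less. Of 54 measured, 9 passed 2-fold on the higher side and 0 on the lower, and 53 were above 0 (median 0.68). Dbf4, the activator of the Cdc7 kinase, read 10.03 with siMUNC and 8.65 with control siRNA (1.38). Pole, a replicative polymerase, was at 1.27, and the helicase subunits Mcm3, Mcm5, Mcm2, Mcm7, Mcm6 and Mcm4 were at 1.17, 0.99, 0.86, 0.79, 0.71 and 0.49. The origin complex genes Orc5 and Orc2 (-0.02 and 0.03) and Rrm1 (0.00), a ribonucleotide reductase subunit, lay at 0 or close to it. In DNA repair, 7 of 36 measured genes were past 2-fold higher (median 0.40), led by the checkpoint kinases Chek2 (1.23) and Chek1 (1.12).

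The G1 to S list had 6 of 28 measured genes past 2-fold, all of them higher (median 0.41). Mybl1, a Myb-family activator, read 9.60 with siMUNC and 7.61 with control siRNA (1.99, 3.97-fold higher). Ccnd1, which encodes cyclin D1, read 12.64 and 10.88, in the same order (1.77, 3.40-fold higher), close to its proliferating levels of 13.02 with siMUNC and 12.70 with control siRNA. Ccne2 (1.52), E2f7 (1.23), Ccnd2 (1.09) and Ccne1 (1.09) were the others. Ccnd3 (-0.13), the cyclin D that stays on in differentiated muscle, did not share this direction, and Rb1, the retinoblastoma gene, was lower by less than 2-fold (-0.67). Of 20 cell cycle exit genes, Cdkn1c, the p57 inhibitor, was past 2-fold lower (8.23 with siMUNC and 9.36 with control siRNA, -1.13) and Cdkn3 past 2-fold higher (1.17). Cdkn1a, the p21 inhibitor, was at -0.12 and Cdkn1b at -0.19.

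Promoters of 4 higher cell cycle genes are shown, because 10 of the 47 higher cell cycle genes with a promoter in the same RefSeq table held both TTTGAA, the cell cycle homology region bound by DREAM and MuvB complexes, and the CCAAT box bound by NF-Y, in these 250 bases. They are the 4 highest by difference among the 10: Kif11 (chr19:37376132-37376381, plus strand), Smc2 (chr4:52438971-52439220, plus strand), Mki67 (chr7:135716380-135716629, minus strand) and Kif22 (chr7:127042421-127042670, minus strand). Capitals mark both motifs on either strand, so that TTCAAA and ATTGG are their reverse forms. The count of 10 serves only to choose these genes, and the share of all expressed genes holding both motifs is not given here.
Kif11: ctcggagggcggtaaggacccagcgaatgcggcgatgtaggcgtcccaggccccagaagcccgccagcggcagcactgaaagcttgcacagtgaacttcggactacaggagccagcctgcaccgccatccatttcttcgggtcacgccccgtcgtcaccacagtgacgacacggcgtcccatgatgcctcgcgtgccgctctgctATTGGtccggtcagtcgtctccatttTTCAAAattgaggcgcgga
Smc2: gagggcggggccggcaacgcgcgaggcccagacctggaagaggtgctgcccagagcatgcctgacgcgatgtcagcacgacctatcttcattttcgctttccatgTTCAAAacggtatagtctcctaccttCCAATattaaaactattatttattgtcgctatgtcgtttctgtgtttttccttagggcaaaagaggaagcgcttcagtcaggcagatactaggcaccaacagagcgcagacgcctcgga
Mki67: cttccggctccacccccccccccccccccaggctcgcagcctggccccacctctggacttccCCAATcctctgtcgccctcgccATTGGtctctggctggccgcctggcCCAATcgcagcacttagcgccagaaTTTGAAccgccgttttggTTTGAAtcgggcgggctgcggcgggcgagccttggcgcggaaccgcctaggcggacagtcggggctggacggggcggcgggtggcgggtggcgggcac
Kif22: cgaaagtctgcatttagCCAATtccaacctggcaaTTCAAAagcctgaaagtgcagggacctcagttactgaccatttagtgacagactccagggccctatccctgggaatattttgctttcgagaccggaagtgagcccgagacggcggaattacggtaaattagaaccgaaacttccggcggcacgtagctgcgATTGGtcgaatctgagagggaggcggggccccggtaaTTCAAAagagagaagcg
Kif11 and Smc2 held 1 of each, TTTGAA at -19 and CCAAT at -45 in Kif11, and TTTGAA at -145 and CCAAT at -119 in Smc2. Mki67, the gene of the Ki-67 antigen, which read 8.86 with siMUNC and 7.67 with control siRNA, held 2 TTTGAA, at -116 and -98, and 3 CCAAT, at -188, -166 and -141. Kif22 held TTTGAA at -215 and -17 and CCAAT at -233 and -54.

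Over all promoters of the table's full length of 300 bases (250 before and 50 after the start), both strands searched, 126 of the 175 lower genes, 118 of the 152 higher genes and 6227 of the 7635 expressed genes had a sequence. CAGCTG was in 31.0% of lower, 14.4% of higher and 18.2% of expressed genes' promoters, and in 18.3% of all 27025 in the table. The wider CANNTG was in 82.5%, 55.1% and 66.0%, and in 20265 (74.99%) of the table's promoters. The MEF2-type site (7.94% of lower, 1.69% of higher, 3.85% of expressed and 4.23% of all) and CATTCC, the MCAT element of TEAD factors (23.8%, 11.02%, 14.1% and 16.6%, in the same order), followed that order too. TTTGAA went the other way: 15.9% of lower, 37.3% of higher, 14.1% of expressed and 20.2% of all promoters held it. Among higher genes it was in 27 of 47 cell cycle genes (57.4%) and in 17 of 71 others (23.9%), and in 55 of 165 (33.3%) of all measured cell cycle list members. CCAAT was in 36.5% of lower, 55.1% of higher, 43.5% of expressed and 41.1% of all. TGACTCA, the AP-1 site, was in 8.73% of lower, 5.08% of higher, 4.35% of expressed and 5.95% of all, and a loose serum response element (CCAT and GG with 4 bases between) in 17.5%, 8.47%, 13.1% and 13.9%. TTTCCCGC, an E2F site, was in 8 of 118 higher promoters (6.78%) and 2 of 126 lower ones (1.59%), against 2.49% of expressed and 1.24% of all, and the E2F form TTTGGCGC was in 2 and 0 (1.22% of expressed and 0.585% of all). Median GC content was 57.6%, 58.8% and 60.8% for lower, higher and expressed promoters. These shares were not tested.

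**Figure D3:**
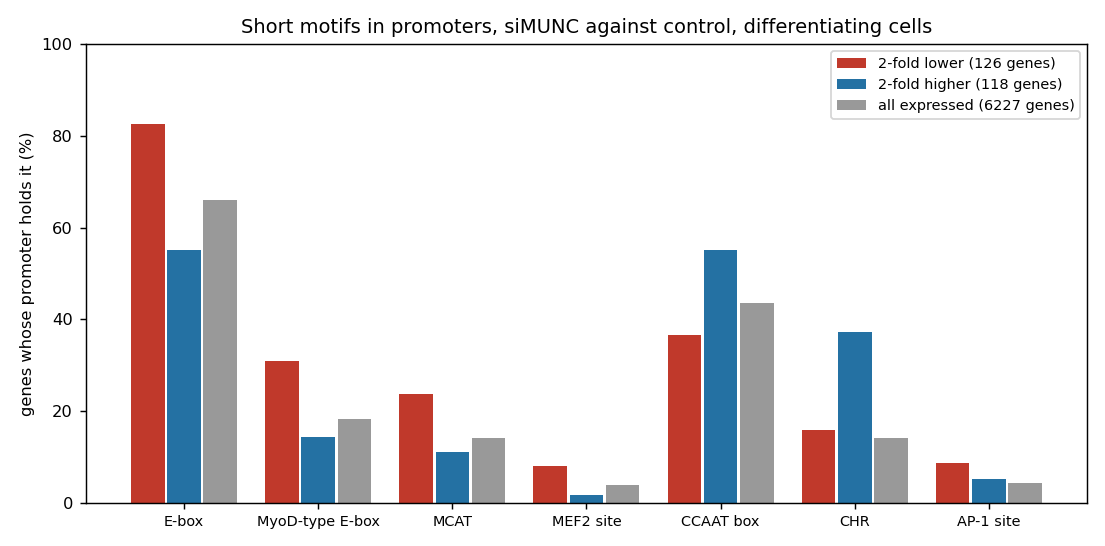
Bars give the share (%) of promoters of 300 bases that hold each motif on either strand, for genes past 2-fold lower (red, 126), past 2-fold higher (blue, 118) and all expressed genes (grey, 6227). The MyoD-type E-box is CAGCTG (31.0%, 14.4% and 18.2%), CHR is TTTGAA (15.9%, 37.3% and 14.1%), and the E-box bar (CANNTG) includes CAGCTG.

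The proliferating arrays entered the level limit but not the differences by which these genes were chosen, and they place both sets. The 175 lower genes had median levels of 8.92 on the siMUNC and 10.51 on the control array of differentiating cells, and of 7.46 and 7.76 in proliferating siMUNC and control cells. In 152 of them the siMUNC differentiating value, though lower than the control's, was above both proliferating values. The 152 higher genes had medians of 9.81 and 8.62 in differentiating siMUNC and control cells, and of 10.59 and 10.70 in proliferating ones, and in 116 of them the siMUNC differentiating value was below both proliferating values. The control differentiating value lay above the proliferating pair in 172 lower genes and below it in 144 higher genes. Since both differentiating values helped to choose these genes, the places of both against the proliferating pair are a description only. The share of all expressed genes in such places is not given here.

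**Figure D4:**
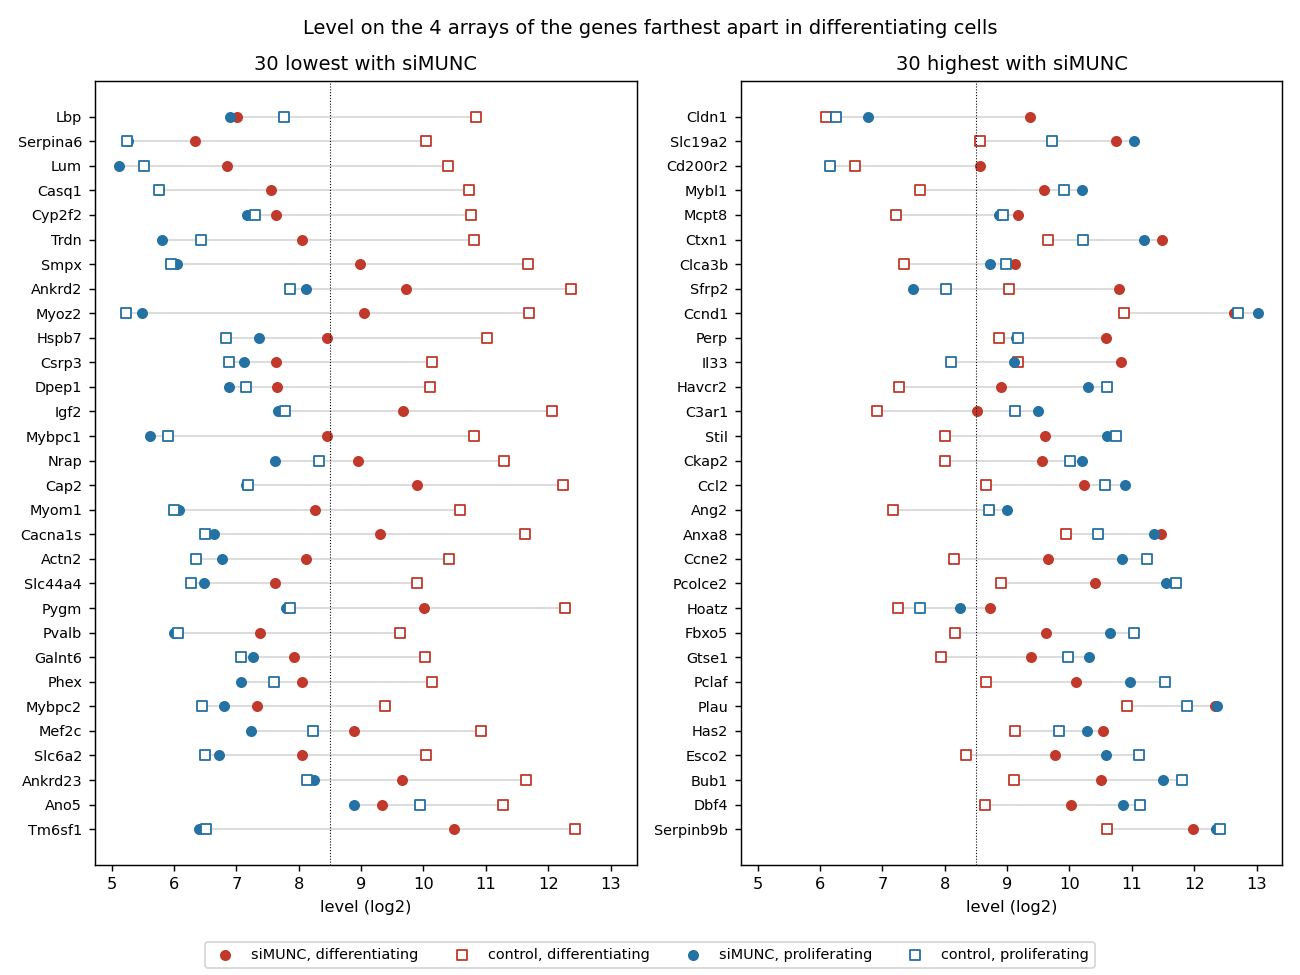
Level (log2) of the 30 genes lowest (left panel) and 30 highest (right panel) with siMUNC among expressed genes that could be named, on each of the 4 arrays, with the dotted line at the limit of 8.50. In most rows of the left panel the siMUNC differentiating value (filled red) lies between the control differentiating value (open red) and the proliferating values (blue). In the right panel this order holds less often. There the siMUNC differentiating value is the highest of the 4 for Cldn1, Cd200r2, Mcpt8, Ctxn1, Clca3b, Sfrp2, Perp, Il33, Anxa8, Hoatz and Has2.

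In other genes that order did not hold. In 24 of the 152 higher genes the siMUNC differentiating value was the highest of the 4. The choice of these genes had already set it above the control value, so only the proliferating values were left to exceed. The share of all expressed genes in this place, or in the matching lowest place below, is not given here. Cldn1, the tight junction protein claudin-1 and the highest gene of the comparison, read 9.37 with siMUNC and 6.09 with control siRNA in differentiating cells (3.28, 9.73-fold higher), and 6.77 and 6.25 in proliferating siMUNC and control cells. It was thus dim on the other 3 arrays. Sfrp2, a secreted Wnt modulator, read 10.80 and 9.03 in differentiating and 7.50 and 8.02 in proliferating siMUNC and control cells. Perp, a desmosomal p53 target, read 10.58 and 8.87 in differentiating cells, and 9.14 and 9.18 in proliferating ones. Vldlr, a lipoprotein and reelin receptor, read 9.75 and 8.42 in differentiating and 7.75 and 7.66 in proliferating cells, with siMUNC first in each pair. Others of this kind were Il33, an interleukin released by damaged cells, Has2, which makes hyaluronan, Vegfc, a lymphatic growth factor, and Angptl4, an inhibitor of lipoprotein lipase. On the lower side 10 genes were lowest of the 4 with siMUNC, Adgrg1, an adhesion receptor (8.98 with siMUNC and 10.73 with control siRNA in differentiating cells, 9.69 and 10.02 in proliferating ones), and Sfrp4, another Wnt modulator (-1.34), among them.

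The 3 lowest genes of all were not sarcomere genes. Lbp, the lipopolysaccharide-binding protein known from liver, read 7.01 with siMUNC and 10.84 with control siRNA (-3.83, 14.2-fold lower). Serpina6, the corticosteroid-binding globulin of plasma, read 6.34 and 10.03, in the same order (-3.69), and Lum, the matrix proteoglycan lumican, 6.84 and 10.39 (-3.55). In all 3 the siMUNC value was below the limit, so the fold rests on a dim value. This also holds for several muscle genes above, such as Casq1 (7.56 with siMUNC), Csrp3 (7.63), Trdn (8.06), Myom1 (8.25) and Mybpc1 (8.45). Lum is also 1 of 11 measured fibroblast markers, of which 6 were below 0 and 2 past 2-fold lower, Lum and the dim Fap (-1.11). The expressed others were Pdgfra (-0.76), Fbln1 (-0.58), Dcn (-0.39), Col1a1 (0.00), Pdgfrb (0.21), Dpt (0.25) and S100a4 (0.27). Their summed level was 14.67 with siMUNC and 14.77 with control siRNA. Of 34 collagen chains 0 were past 2-fold (median 0.01). Phex, a bone endopeptidase (-2.08), was the 1 expressed gene of 5 osteoblast markers, with Sp7, Ibsp, Alpl and Dmp1 dim on every array, and their summed level of 9.19 with siMUNC and 10.53 with control siRNA followed Phex.

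Secreted factors and their receptors were lower at a few genes. Igf2, the autocrine growth factor of differentiating myoblasts, read 9.67 with siMUNC and 12.07 with control siRNA (-2.39, 5.25-fold lower), and 7.66 and 7.78 in proliferating siMUNC and control cells. Its axis was mixed: Igfbp4 (-1.33) was past 2-fold lower and Igfbp2 past 2-fold higher (11.01 and 9.87, 1.14), while the receptor Igf1r was at 0.36 and Akt1 at 0.02. Fgf21 (-1.67), a hormone that stressed muscle secretes, Fndc5, the gene of the irisin precursor (-1.20), and Fst, the activin antagonist follistatin (-1.003), were also lower. Porcn, the acyltransferase of Wnt ligands, was at -1.71, while Vegfc (1.37) and Met, the receptor of hepatocyte growth factor (1.12), were past 2-fold higher. Of 52 genes of TGF-beta, BMP, activin and myostatin signalling, Fst was the 1 past 2-fold, and of 26 Notch genes 0 were.

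Genes that respond to growth signals and to p53 were higher in part. In the list of ERK feedback genes and targets 3 of 22 were past 2-fold higher and 18 above 0 (median 0.41). Dusp4, a phosphatase of ERK, read 10.21 with siMUNC and 8.90 with control siRNA (1.31), and its relative Dusp6 was at 0.98. Of 29 immediate early genes, Ereg, the ligand epiregulin (1.11), and Myc (10.14 and 9.09, 1.05) were past 2-fold higher. Of 30 p53 targets, 5 were past 2-fold higher, namely Perp (1.71), the polymerase gene Polk (1.26), Zmat3 (1.19), Trp53inp1 (1.09) and Apaf1 (1.04), and Ddit4l was past 2-fold lower (-1.56), with a median of 0.36. Mdm2 (0.60) and Cdkn1a (-0.12), which p53 also activates, were within 2-fold. In the urokinase system, Plau (12.34 with siMUNC and 10.92 with control siRNA, 1.43) and its receptor gene Plaur (1.11) were past 2-fold higher, as was Tnc, the matrix protein tenascin C (1.30). Among 57 cytokine genes 3 were past 2-fold higher (Il33 1.64, Ccl2 1.56 and Ptgs2 1.28) and 3 past 2-fold lower (Cxcl13 -1.49, Ccl11 -1.10 and the dim Cxcl16 -1.36).

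Many groups had few or no genes past 2-fold. None was past 2-fold of 40 interferon-stimulated genes (median 0.19), 23 cholesterol synthesis genes (0.04), 36 genes of NRF2 and oxidative stress (0.19), 36 ribosome biogenesis genes (0.11), 66 mitochondrial ribosomal protein genes (-0.04), 29 proteasome genes (-0.11) or 15 clock genes (-0.04). Some of these lists leaned to 1 side by small amounts. Above 0 were 31 of 40 interferon-stimulated and 27 of 36 ribosome biogenesis genes, and below 0 were 22 of 29 proteasome genes. Of all measured genes 51.98% were above 0, and these leanings were not tested. Of 57 chromatin genes only Hmga2 was past 2-fold, and of 30 splicing factors only Rbfox1, a regulator of muscle exons (8.27 with siMUNC and 9.98 with control siRNA, -1.71). Of 38 chaperone genes the 3 past 2-fold lower were muscle ones, Hspb7 (-2.57), Unc45b (-1.93) and Hspb8 (-1.18). Reserve and satellite cell markers had a median of -0.09 over 17 genes, with Pax7 at -0.42 and Cd34 at 1.08, and a summed level of 15.27 with siMUNC and 15.24 with control siRNA. Neuron markers summed to 11.87 with siMUNC and 11.03 with control siRNA, through Nefl (1.16), Stmn2 (0.92) and Gap43 (0.73), while Rbfox3, Snap25 and Syt1 were dim on all arrays. The same sum was 12.33 and 12.69 in proliferating siMUNC and control cells, above both differentiating arrays. The part of this sum in any result was not tested.

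The siRNA comparison in proliferating cells shares no array with that in differentiating cells. Over the 7231 genes expressed in both, the differences correlated across genes at 0.35 by Pearson and Spearman alike, a description only, since genes are not independent and the siRNA and the array processing are common to both. Past 2-fold lower in both states were 6 genes: the anoctamin Ano5, the adiponectin relative C1qtnf3, Apobec2, a muscle-enriched deaminase-family gene, the chemokine Cxcl13, Islr and the potassium channel Kcnj2. Past 2-fold higher in both were Slc19a2, a thiamine transporter (2.18 in differentiating and 1.31 in proliferating cells), Il33 (1.64 and 1.01) and Trp53inp1 (1.09 and 1.19). They are 6 of 52 lower and 3 of 145 higher genes in differentiating cells, and 6 of 18 and 3 of 7 in proliferating cells, among the 7231. C1qtnf3 read 11.68 with siMUNC and 13.51 with control siRNA in differentiating cells, and 9.87 and 11.27 in proliferating siMUNC and control cells. None of these 7231 genes was past 2-fold in opposite directions. Lmod1, a smooth muscle leiomodin that was dim on all 4 arrays, was at -1.03 in differentiating and 1.09 in proliferating cells.

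For the muscle lists the proliferating state gave smaller medians: 0.03 for the thick filament, -0.15 for the thin filament, 0.10 for the Z-disc, 0.25 for the stretch-responsive and -0.05 for the triad list. Of the 13 thick filament genes 12 were dim on both proliferating arrays, and of the 22 triad genes 11. Cell cycle genes lay on opposite sides of 0 in the 2 states, a difference that was not tested. In proliferating cells 70 of 71 mitosis and kinetochore genes and 53 of 54 DNA replication genes were below 0 (medians -0.35 and -0.34), with 0 past 2-fold, whereas the median of the p53 targets was above 0 in both states (0.36 in differentiating and 0.27 in proliferating cells), with 19 and 24 of 30 targets above 0. Of the 60 higher cell cycle genes 57 (95%) were below 0 in proliferating cells. This is near the share of all expressed genes of these lists, 139 of 154 (90.3%), while that of all expressed genes was 55.1%. Of the 32 higher genes of other lists 25 were above 0, against 452 of 948 expressed genes of those lists.

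**Figure D5:**
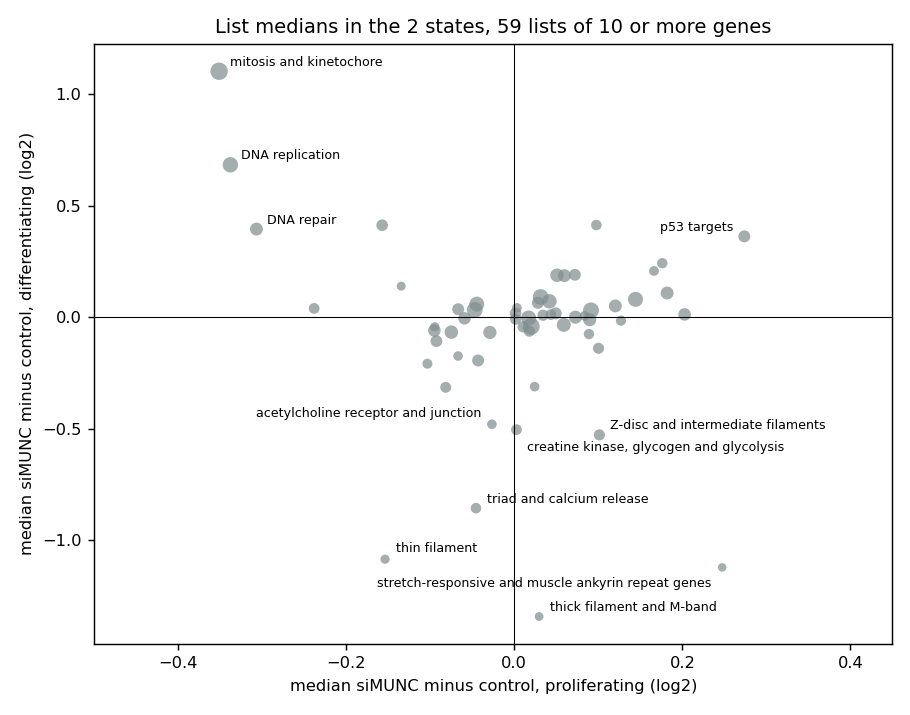
Each point is 1 of 59 lists with 10 or more measured genes, its area growing with their number, at the median siMUNC minus control difference (log2) in proliferating (across) and differentiating cells (up). The labelled muscle lists lie below 0 in differentiating cells, between -0.15 and 0.25 in proliferating cells, and mitosis, DNA replication and DNA repair lie above 0 in differentiating and below 0 in proliferating cells.

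Near the 2-fold line on the lower side lay Ppa1 (-1.002), Fst (-1.003) and Stim1 (-1.01) inside, and Obsl1 (-0.998), Amigo1 (-0.99) and Ptgis (-0.99) outside. On the higher side Syt13 (1.002), Cep192 (1.004) and Capg (1.01) lay inside, and Mcm5 (0.99), Akap12 (0.99) and Ptpn14 (0.99) outside. Fst, Stim1 and Mcm5 are therefore on their side of the line by margins that the data cannot resolve. Genes of families with close copies, such as Serpinb9b (1.38), Clca3b (1.79), Mcpt8 (1.96), Cd200r2 (2.01) and the ribonuclease gene Ang2 (1.54), are uncertain as single genes, since probes of 1 member may read another.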

How the data were processed

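Gene expression was measured on 4 arrays, 1 for each of 4 groups, in C2C12 cells. The deposited values were made by the authors with Affymetrix Expression Console, a program the submitters' processing notes name. Its version, its background correction and normalization, and the build used were not given in the sources used here. As to scale, the values were taken as log2 intensities from their range, since the authors' scale is not stated in the deposited table. A table of probe annotation paired 14996 of 23332 clusters with 1 gene, 1019 with several and 7317 with none, and only the first were named. Symbols were updated through the Entrez identifier for 14941 clusters, while 55 kept theirs. For the 135 genes with several clusters the one with the highest mean over 4 arrays was used. Array medians ran from 7.96 to 8.03, and no further scaling was applied.

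Differences were computed in Python 3.11.15 with pandas 2.3.3 and numpy 2.4.6, tested on simulated data, and drawn with matplotlib 3.10.9. Alternatives, some through limma 3.58.1 in R 4.3.3, were centring, quantile normalization, cyclic loess, an offset of 50, other level filters and the mean over clusters. With 1 array a group there was no test. The genes named are the 30 lowest and 30 highest expressed genes with a usual gene name, 3 on each side of the 2-fold line, those at the level limit, the neighbours of Myod1, and members of 72 gene lists, those farthest from 0 first. Other genes named for their place among the 4 arrays or in both states were chosen after their values were seen. The members and lists were chosen with earlier results of these data known. Clusters without a single gene were not analysed here beyond the scaling of arrays.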

Additional observations from a re-analysis of the deposited data

Results flagged for a closer look

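Of 61 gene lists other than markers, 3 had at least 80% of their measured members (10 or more) above 0 in one state and below 0 in the other, siMUNC minus control. The mitosis and kinetochore list had a median of 1.10 in differentiating cells, with 71 of 71 genes above 0, and of -0.35 in proliferating cells, with 70 of 71 below 0. The DNA replication list had a median of 0.68 in differentiating cells, with 53 of 54 above 0, and of -0.34 in proliferating cells, with 53 of 54 below 0. The DNA repair list had a median of 0.40 in differentiating cells, with 33 of 36 above 0, and of -0.31 in proliferating cells, with 35 of 36 below 0. With 1 array a group the difference between the states was not tested, and the genes of a list share their arrays and cultures.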

How the results depend on the processing

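The main counts were 152 genes past 2-fold higher and 175 past 2-fold lower. Requiring both differentiating values at or above the level limit left 82 higher and 98 lower of 7082 genes, and requiring the higher value at or above the 75th percentile left 65 higher and 109 lower of 4028 genes; both filters test fewer genes. The other alternatives stayed within 1.5 times of the main counts: 139 and 185 with centring, 147 and 186 with quantile normalization, 143 and 182 with cyclic loess, 111 and 152 with an offset of 50, 152 and 174 with the mean over clusters, and 189 and 214 with no filter. The 30 lowest and 30 highest genes stayed past 2-fold under centring, quantile normalization, cyclic loess, the offset and the mean over clusters. Among the genes of lists and others named, 46 dropped inside 2-fold with the offset of 50, Myc (0.98), Birc5 (0.88), Fst (-0.94), Stim1 (-0.95), Kcnj2 (-0.93), Ptger4 (0.91) and Cdc20 (0.97) among them, and Epha2 (0.77) and Plk1 (0.71) did so with the mean over clusters. With centring 8 genes dropped inside, with cyclic loess 5 and with quantile normalization 3. Capg, Cep192 and Syt13 did so under all 3, and Cdc20 and Ptger4 under centring and cyclic loess. No difference past 2-fold turned its sign under these alternatives. Of 72 list medians, 0 moved by 0.1 or more under the 3 other scalings, 8 did with the offset and 20 with expressed members only. No paired analysis was possible because each group has 1 array. Levels near or below the limit of 8.50 are the least certain, and folds against dim values depend on the background correction, whose method is not given in the sources used here.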

Other observations

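For 4 genes past 2-fold, a second transcript cluster gave another value. Klhl31, a muscle cullin adaptor, differed by -1.38 on the cluster used and by -1.64 on the other, which was also above the limit. Vamp5, a muscle vesicle protein, differed by -1.03 and, on a dim cluster, by -1.75. Epha2 (1.15) and Plk1 (1.06) had dim second clusters at 0.38 and 0.37. On chromosome 14, 15 of 272 expressed genes (5.51%) were past 2-fold higher with siMUNC, against 1.99% of all expressed genes, a difference that was not tested.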
